A study of Mus musculus with 8 samples.

Results

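The genes of 10 chromatin remodeler proteins, 6 of the SWI/SNF complex and 4 of the Chd family, were examined in 2 lists of H3K27ac peaks from Oli-neu cells. They were Smarca4, Smarca2, Smarcb1, Smarcc1, Arid1a and Arid1b for SWI/SNF, and Chd7, Chd8, Chd3 and Chd4 for Chd, out of 21951 protein-coding genes in the annotation. The genes were chosen by name and not by their peaks, although earlier results of these data were known. Every peak over a gene body or within 20 kb of it was taken, 42 of the 28924 peaks of the proliferating list and 44 of the 27965 peaks of the differentiating list. H3K27ac, the acetylation of histone H3 at lysine 27, was mapped by ChIP-seq, in which DNA bound by the marked histone is pulled down with an antibody and sequenced. Oli-neu is an immortalised mouse line of the oligodendrocyte lineage, labelled with the strain C57BL/6, so that each result belongs to a single cell line. Proliferating cells were kept in medium with bFGF and Pdgf-BB. Differentiating cells spent, according to the labels, 1 day without growth factors and with 1 μM of the erb inhibitor PD174265, whereas the study's culture methods give a longer time. Each state gave 1 library, so no difference between the states could be set against replicate error and none was tested. The 6 ATAC-seq samples of the series, 3 siCtrl and 3 siPadi2 in differentiating cells, were not analysed here.

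Chromatin remodelers use ATP to slide, evict or restructure nucleosomes. The SWI/SNF (BAF) complex carries either Smarca4 (BRG1) or Smarca2 (BRM) as its motor, built on core subunits such as Smarcb1 and Smarcc1, with Arid1a and Arid1b as alternative DNA-binding subunits of the canonical complex. Chd proteins are remodelers with paired chromodomains: Chd3 and Chd4 are motors of the NuRD complex, which also holds histone deacetylases, and Chd7 and Chd8 form another subfamily. In oligodendrocytes, Smarca4 is known to be recruited by Olig2, and Chd7 to act with Sox10 on myelin genes. H3K27ac is found at active promoters and enhancers.

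The peaks carry the authors' fold enrichment, a ratio, and −log10 of the q-value, but no read counts, so that the depth behind a peak is unknown. Because the lists were called separately, a peak is described by its percentile, the percentage of its own list with a lower value, and not by its raw value against the other list. A promoter region reached from 3000 bp upstream to 100 bp downstream of a gene's most 5′ transcription start site (TSS), and positions are given from that TSS in the direction of transcription. Cell identity was checked at 18 marker genes. Of 7 markers of the oligodendrocyte lineage, 3 (Sox10, Olig1 and Olig2) had a promoter peak in both lists and Sox8 in the differentiating list alone, while Nkx2-2, Cspg4 and Pdgfra had none. A peak over the TSS of some annotated transcript, a different measure, was found in both lists for only 1 of the 7, Sox10. By that measure Sox8 and Pdgfra had a peak in the differentiating list alone, and Olig1 and Olig2 had none. No promoter peak was found for 3 astrocyte, 3 microglial and 2 endothelial markers, and 1 of 3 neuronal markers (Syt1) had a promoter peak in the differentiating list.

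All 10 remodeler genes had an acetylated start in both states, but not always at the most 5′ TSS. A peak lay over the TSS of some annotated transcript in 10 of 10 genes in each state (22.4% and 27.1% of all protein-coding genes). In both lists this held for 10 of 10 (100%, 95% exact interval 69.2 to 100) against 17.0%. The genes had from 3 (Smarca4) to 42 (Smarca2) distinct annotated starts, and the shares of all genes were not matched for the number of starts. Chd3 was counted through 1 start, at 4627 bp, which is not that of a principal transcript. With the promoter region of the 5′ TSS, a peak was present in proliferating cells for 9 of 10 genes (23.7% of all genes) and in differentiating cells for 6 of 10 (27.7%). The 6 genes with a promoter peak in both lists (60.0%, 26.2 to 87.8, against 17.6% of all genes) were Smarca4, Smarca2, Smarcb1, Smarcc1, Chd8 and Chd4. Arid1a, Arid1b and Chd7 had their promoter peak only in proliferating cells (3 of 10, against 6.13% of all genes), none had it in the differentiating list alone (0 of 10, against 10.1%), and 9 of 10 had it in either list (33.8%). Chd3 had none in either list. In the 4 genes without a differentiating promoter peak, acetylation began further into the gene, at 352 bp in Chd7, 647 bp in Arid1b, 2527 bp in Arid1a and 134 bp in Chd3, where it was only 34 bp past the promoter region. With the promoter region drawn at the transcripts that the annotation marks as principal, 9 of 10 genes had a peak in both lists (19.8% of all genes), all but Chd3. The counts of 9 and 6 therefore held for the 5′ TSS and not for the principal starts. At the 5′ TSS of Arid1a itself, a peak from −596 to 319 bp was in the proliferating list alone, whichever start was counted.

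**Figure D1:**
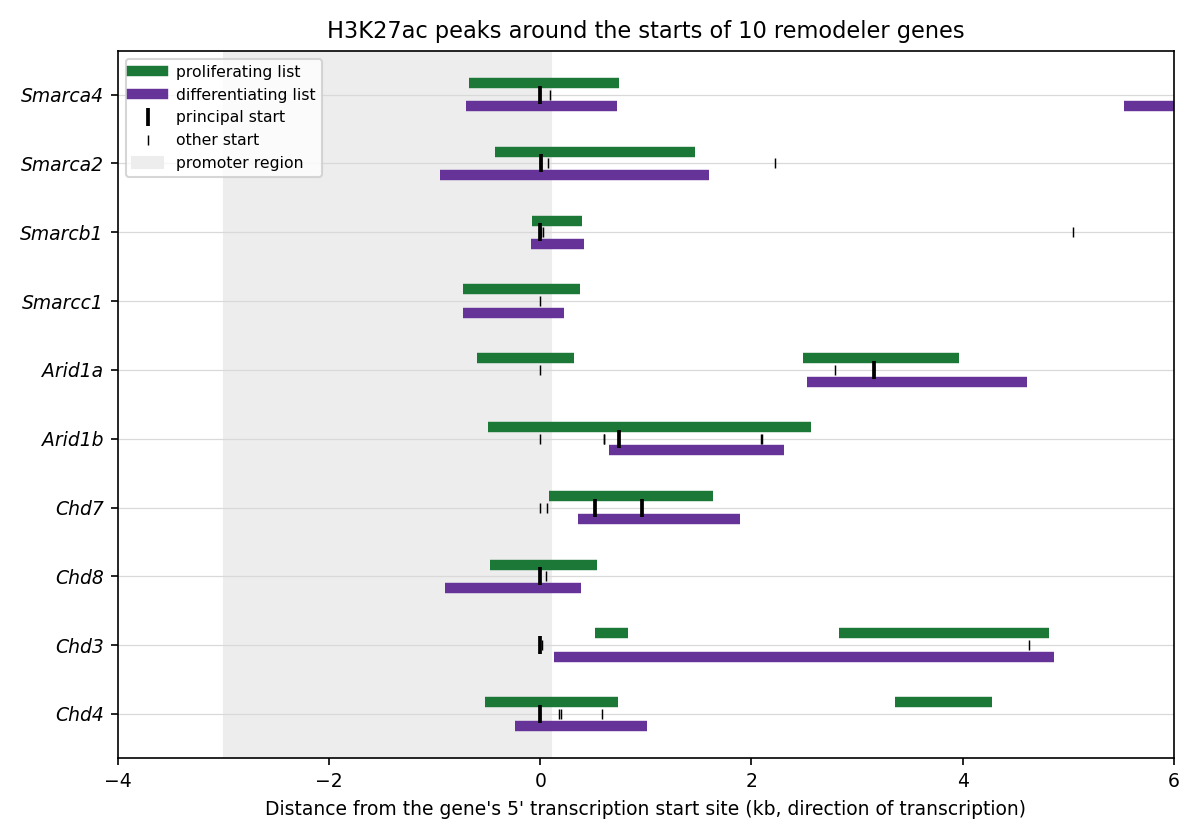
Peaks of both H3K27ac lists from 4 kb upstream to 6 kb downstream of the 5′ TSS of each gene, with green bars for proliferating and purple bars for differentiating cells. Thick ticks mark the starts of principal transcripts, thin ticks other transcript starts, and grey the promoter region. Arid1a shows 2 acetylated starts in proliferating cells and only the inner of them in differentiating cells.

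The peaks over starts ranked above the middle of their lists by −log10 q and by width, but not by fold enrichment in proliferating cells. There were 13 of them in proliferating and 12 in differentiating cells, with a median percentile of 79.2 and 89.3 by −log10 q, beside 78.1 and 77.3 for all peaks over a protein-coding TSS. By fold enrichment their median percentile was 37.4 and 76.9, beside 71.9 and 73.6. Their median width was 1428 bp and 1360 bp, beside 939 bp and 967 bp. A counterpart, meaning a peak of the other list sharing at least 1 base, was present for 12 of 13 proliferating start peaks (92.3%, 64.0 to 99.8) and 12 of 12 differentiating start peaks (100%, 73.5 to 100), beside 80.3% and 69.9% of all peaks over a TSS. The single start peak without a counterpart was that at the 5′ TSS of Arid1a.

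**Figure D2:**
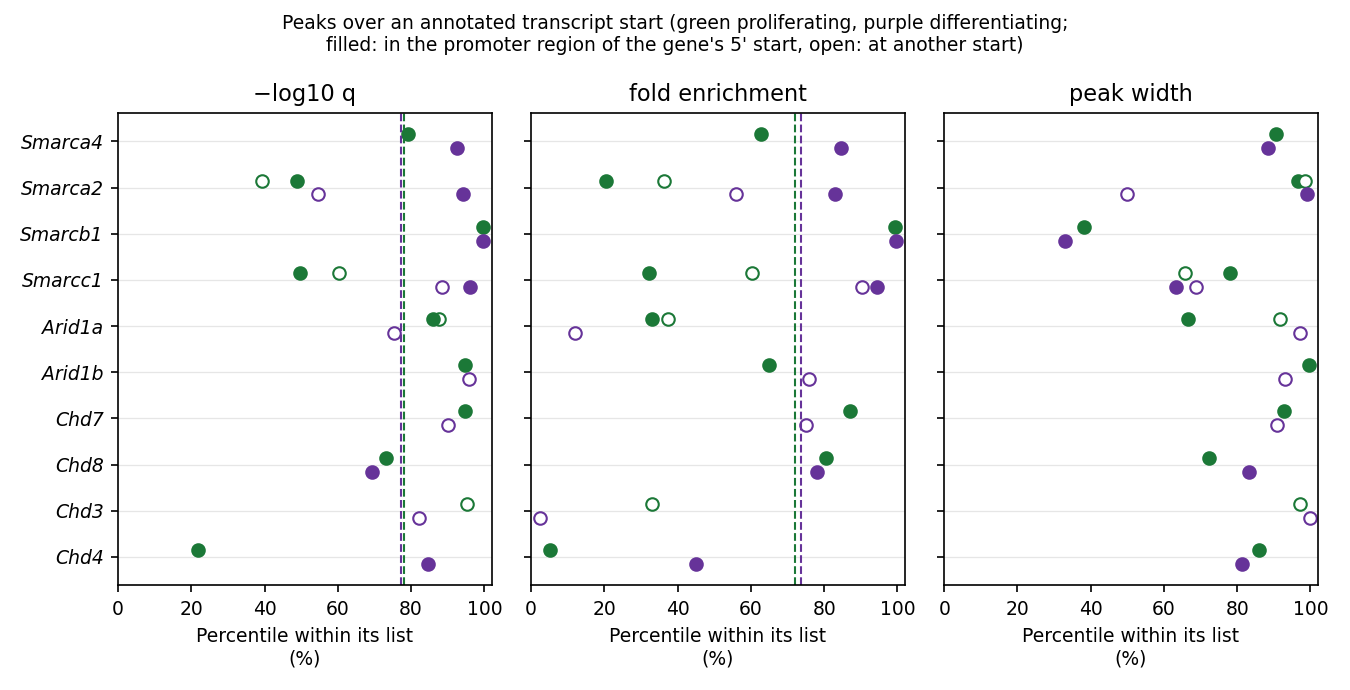
Percentile of each start peak within its own list for −log10 q, fold enrichment and width (x axes, in %), green for proliferating and purple for differentiating, filled in the promoter region of the 5′ TSS and open at another start. Dashed lines give the medians of all peaks over a protein-coding TSS. Smarcb1 lies at the right edge for −log10 q and fold enrichment and is low in width, and the differentiating Chd3 peak lies at the left edge for fold enrichment and at the right edge for width.

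Of the 2 motor subunits of SWI/SNF, Smarca4 (88.1 kb, plus strand of chromosome 9) had 1 acetylated start region, and Smarca2 (173 kb, plus strand of chromosome 19) had 2. The Smarca4 promoter peak covered −680 to 747 bp in the proliferating list with fold 3.47 and −log10 q 2.80 (percentile 79.2). In the differentiating list it covered −703 to 724 bp with fold 3.68 and −log10 q 4.49 (percentile 92.5). Both peaks were 1428 bp wide and nearly in register. Inside the gene, the proliferating list held no other peak, and the differentiating list held 3 intronic peaks 5.53, 70.3 and 76.7 kb into the gene, at percentiles of 64.8, 18.2 and 41.0.

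The 250 bases before the Smarca4 start, chr9:21615919-21616168 (plus strand, GRCm38.p6, RefSeq), lay under the peaks of both lists and are shown because they hold 2 kinds of promoter element. Capitals mark the GC box (GGGCGG or its reverse complement), the element bound by Sp1-type factors, and the core TGCGCA of the NRF1 site.
Smarca4: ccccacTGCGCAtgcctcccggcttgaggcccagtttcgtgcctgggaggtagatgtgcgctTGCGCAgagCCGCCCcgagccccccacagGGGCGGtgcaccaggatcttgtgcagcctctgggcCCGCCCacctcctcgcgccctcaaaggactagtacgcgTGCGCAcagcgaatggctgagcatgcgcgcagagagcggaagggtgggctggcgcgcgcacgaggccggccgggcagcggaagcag
The stretch holds 3 GC boxes and 3 NRF1 cores, the most NRF1 cores among the 10 RefSeq start windows of the genes examined.

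Smarca2 had a promoter peak from −431 to 1462 bp in the proliferating list (fold 3.07, −log10 q 1.91, percentile 48.8) and from −951 to 1593 bp in the differentiating list (fold 3.63, −log10 q 4.95, percentile 94.1). It was wide in both, 1894 and 2545 bp, at width percentiles of 96.5 and 99.0. A second acetylated start region lay far inside the gene, where many short Smarca2 transcripts begin. There, 142328 to 144561 bp were covered in the proliferating list (percentile 39.3) and 142701 to 143454 bp in the differentiating list (percentile 54.7). Over both start regions, the peaks held 19 of the 42 distinct annotated starts in the proliferating and 15 in the differentiating list. A further shared region, over an exon and starting 25.8 and 24.4 kb into the gene, was 326 bp wide in the proliferating and 1698 bp in the differentiating list. Of the other Smarca2 regions, 2 were found in the proliferating list alone and 4 in the differentiating list alone.

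Among the core subunits, Smarcb1 (SNF5) carried the strongest peaks of all 10 genes. Its promoter peak, on the minus strand of chromosome 10, reached from −80 to 392 bp in the proliferating list with fold 6.47 and −log10 q 15.6. In the differentiating list it reached from −89 to 413 bp with fold 6.67 and −log10 q 19.3. It ranked 129 of 28924 and 95 of 27965 by −log10 q (percentiles 99.6 and 99.7), yet it was only 473 and 503 bp wide, at width percentiles of 38.0 and 32.9. Its acetylation was thus high and narrow in both lists. The rest of the gene held 1 weak intronic peak in the proliferating list (percentile 18.5) and no peak in the differentiating list. Beyond its 3′ end, a peak 40.1 kb from the start was shared (percentiles 80.4 and 74.3), a proliferating peak lay at 26.7 kb (percentile 2.57), and a differentiating peak at 31.2 kb (percentile 57.3) lay in the promoter region of Derl3, a gene of endoplasmic reticulum protein disposal.

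The 250 bases before the RefSeq start of Smarcb1, chr10:75921615-75921864 (minus strand, GRCm38.p6), are shown as the start under the strongest peaks, with GC boxes in capitals.
Smarcb1: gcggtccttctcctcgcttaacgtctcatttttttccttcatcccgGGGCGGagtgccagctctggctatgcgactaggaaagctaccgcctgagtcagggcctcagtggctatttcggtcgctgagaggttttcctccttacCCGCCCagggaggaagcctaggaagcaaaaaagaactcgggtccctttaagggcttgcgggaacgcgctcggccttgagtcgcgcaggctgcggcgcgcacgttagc
They hold 2 GC boxes, and 1 more lies in the next 50 bases. Only the bases nearest the start lie under the peaks, which begin at −80 and −89 bp.

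Smarcc1 (BAF155), a scaffold subunit on the plus strand of chromosome 9, had 2 acetylated starts, and both were found in both lists. The peak at the 5′ TSS covered −732 to 374 bp in the proliferating list (fold 3.16, −log10 q 1.93, percentile 49.6) and −733 to 224 bp in the differentiating list (fold 4.16, −log10 q 5.82, percentile 96.1). This region is also the promoter region of Dhx30, an RNA helicase gene, so that its acetylation cannot be assigned to 1 of the 2 genes. The start of the principal transcript, 14272 bp further on, was covered from 13827 to 14731 bp (percentile 60.4) and from 13841 to 14879 bp (percentile 88.5). A wide exonic region was shared near 87.5 kb, 1972 bp wide at percentile 89.5 in the proliferating list and 2286 bp at percentile 83.0 in the differentiating list. A shared peak 127 kb from the start (percentiles 95.7 and 88.8) lay in the neighbouring gene Cspg5. In all, 4 of the 6 Smarcc1 regions were shared, and the others were short intronic peaks of 263 bp (proliferating, percentile 47.0) and 279 bp (differentiating, percentile 69.8).

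In the genes of the ARID subunits, the principal starts were acetylated in both lists and the 5′ TSS in the proliferating list alone. Starts further inside, at 32890 and 35993 bp in Arid1a and 46246 bp in Arid1b, lay under no peak. Arid1a, on the minus strand of chromosome 4, had a peak over its 5′ TSS from −596 to 319 bp in the proliferating list (fold 3.17, −log10 q 3.26, percentile 86.1) and none there in the differentiating list. The start of its principal transcript at 3158 bp was covered in both, from 2492 to 3965 bp (fold 3.21, −log10 q 3.42, percentile 87.7) and from 2527 to 4607 bp (fold 2.78, −log10 q 2.69, percentile 75.3). The inner start was therefore shared and the outer start listed in 1 state only. No other region inside Arid1a was shared. The proliferating list had peaks at 48.4 and 71.4 kb (percentiles 8.49 and 80.2). The differentiating list had a peak at 26.6 kb (percentile 93.9) and a weak one upstream of the gene, from −13.2 to −11.9 kb (percentile 17.4). The peak near 83.9 kb, at percentiles of 98.4 and 98.7 the highest of the Arid1a region in each list, lay in the promoter region of Pigv, a gene of GPI anchor synthesis.

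RefSeq has a start of Arid1a at the 5′ TSS and another 2784 bp into the gene, under the inner peaks of both lists, and the 250 bases before each (minus strand, GRCm38.p6) are shown so that the outer and the inner start can be compared, with GC boxes in capitals. The outer stretch is chr4:133756770-133757019 and the inner is chr4:133753986-133754235.
Arid1a outer start: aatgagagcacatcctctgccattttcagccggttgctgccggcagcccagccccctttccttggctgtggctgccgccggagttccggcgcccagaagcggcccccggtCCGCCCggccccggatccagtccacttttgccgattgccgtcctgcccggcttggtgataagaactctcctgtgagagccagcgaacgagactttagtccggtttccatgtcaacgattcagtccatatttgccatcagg
Arid1a inner start: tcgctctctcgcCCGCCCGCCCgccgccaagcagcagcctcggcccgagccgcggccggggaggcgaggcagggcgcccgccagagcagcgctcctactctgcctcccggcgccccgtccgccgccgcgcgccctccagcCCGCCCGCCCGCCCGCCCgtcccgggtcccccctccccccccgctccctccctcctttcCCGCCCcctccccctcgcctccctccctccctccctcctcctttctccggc
The outer stretch holds 1 GC box and the inner 7, of which several overlap in runs of CCGCCC. The 300-base windows around these starts had a G+C content of 61.3% and 79.7%.

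Arid1b, the longest of the 10 genes (353 kb, plus strand of chromosome 17), had the widest proliferating start peak, 3054 bp from −493 to 2560 bp (fold 3.50, −log10 q 4.70, percentile 94.9). In the differentiating list the start peak was 1666 bp wide from 647 to 2312 bp (fold 3.47, −log10 q 5.71, percentile 95.9). It lay wholly inside the proliferating peak and covered the principal start at 742 bp, but neither the 5′ TSS nor the start at 607 bp. Each list held 7 peaks over Arid1b, but only 2 of 12 joined regions were shared, the start and an intronic region near 300.3 kb. The other 5 proliferating and 5 differentiating regions were intronic, at percentiles of 1.97 to 61.8 and of 5.24 to 84.7.

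Chd7 (177 kb, plus strand of chromosome 4), mutated in CHARGE syndrome in humans, had its start peak just inside the gene. It reached from 85 to 1632 bp in the proliferating list (fold 3.98, −log10 q 4.62, percentile 94.6) and from 352 to 1891 bp in the differentiating list (fold 3.45, −log10 q 4.04, percentile 90.2). Both peaks covered the principal starts at 515 and 959 bp, and neither covered the 5′ TSS, which belongs to a transcript with a retained intron. A shared intronic region near 109 kb had percentiles of 55.4 and 83.3. The differentiating list added a 279 bp peak at 7.28 kb (percentile 84.3) and an exonic peak at 60.1 kb (percentile 38.1), and the proliferating list held no other peak.

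Chd8 (59.6 kb, minus strand of chromosome 14), a relative of Chd7, was the only gene of the 10 in which all regions were shared. It had only 2 regions. Its promoter peak covered −473 to 536 bp (fold 3.79, −log10 q 2.52, percentile 73.1) and −904 to 387 bp (fold 3.51, −log10 q 2.43, percentile 69.4). The other peak, near 59.9 kb (percentiles 80.5 and 75.6), lay in the promoter region of Supt16, which encodes a subunit of the histone chaperone FACT. Chd8 also has a second principal transcript starting 20208 bp into the gene, which lay 19672 and 19821 bp from the nearest peak.

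Among the NuRD motors, Chd3 (26.1 kb, minus strand of chromosome 11) had the widest peak of all 10 genes and no peak at its 5′ TSS. In the proliferating list it had a small peak from 516 to 834 bp (fold 2.41, −log10 q 1.66, percentile 30.1) and a wide one from 2831 to 4819 bp (fold 3.16, −log10 q 4.83, percentile 95.2). In the differentiating list a single peak of 4733 bp ran from 134 to 4866 bp and overlapped both, ranking 6 of 27965 by width. Its fold enrichment was low, 2.44 (percentile 2.41), with −log10 q 3.11 (percentile 82.1). The wide peaks covered the start of another protein-coding transcript at 4627 bp. Peaks took 8.83% of the gene body in the proliferating and 18.1% in the differentiating list, the highest share among the 10 genes in the differentiating list. Chd3 also neighbours the promoter regions of Cntrob, Trappc1 and Kcnab3, which shared a low-ranking peak (percentiles 33.7 and 2.98), and of Rnf227, with a peak in the differentiating list alone (percentile 26.6).

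Chd4 (34.6 kb, plus strand of chromosome 6), the other NuRD motor, was the only gene of the 10 with peaks upstream of its promoter region in both lists, and the strongest peak was there. The promoter peak covered −524 to 739 bp in the proliferating list (fold 2.73, −log10 q 1.55, percentile 21.9), the lowest rank of the 13 start peaks of that list, and −243 to 1008 bp in the differentiating list (fold 3.08, −log10 q 3.31, percentile 84.6). The upstream peak covered −7456 to −5739 bp (fold 3.79, −log10 q 5.39, percentile 96.3) and −7388 to −5683 bp (fold 3.31, −log10 q 5.53, percentile 95.6). It therefore ranked above the promoter in both lists. A weak peak near −12.6 kb was also shared (percentiles 2.05 and 18.0). Inside the gene, peaks at 3.36 and 9.28 kb (percentiles 67.9 and 35.9) were found in the proliferating list alone. The remaining peaks, 49.4 to 53.3 kb from the start, lay in the neighbouring gene Iffo1.

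The sequences of the Chd4 start and of its upstream region are shown because they share a short run of letters, TTATGGG, in capitals here, which was noticed after the sequences had been seen. The first is the 250 bases before the start, chr6:125095731-125095980, from RefSeq, and the second is the central 200 bases of the upstream region acetylated in both lists, chr6:125089318-125089517 (both plus strand, GRCm38).
Chd4 start: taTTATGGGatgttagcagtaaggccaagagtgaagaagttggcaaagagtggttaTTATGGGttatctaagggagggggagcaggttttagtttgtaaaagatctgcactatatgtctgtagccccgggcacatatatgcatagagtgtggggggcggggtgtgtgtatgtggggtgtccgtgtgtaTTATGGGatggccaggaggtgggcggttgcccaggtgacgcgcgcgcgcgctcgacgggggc
Chd4 upstream: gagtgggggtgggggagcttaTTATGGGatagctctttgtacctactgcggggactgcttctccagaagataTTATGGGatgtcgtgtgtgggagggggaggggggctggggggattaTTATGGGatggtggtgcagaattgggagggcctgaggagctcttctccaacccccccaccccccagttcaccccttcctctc
Each holds the run 3 times. Of 21263 RefSeq start windows, 513 (2.41%) hold it at least once, 12 at least 2 times, and Chd4 alone 3 times. No window of the other genes among the 10 held it. The whole shared upstream region of 1650 bp holds it 11 times, or 6.67 times per kb, beside 0.130 per kb over chromosome 6, and 9 more lie in the 5495 bp between that region and the promoter peaks. The run was counted on both strands. Its density is a description of the sequence and was not set against any measure of binding. The upstream region also had a low CpG content, an observed over expected ratio of 0.239 at a G+C content of 60.2%, whereas the start window had a ratio of 0.875.

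**Figure D3:**
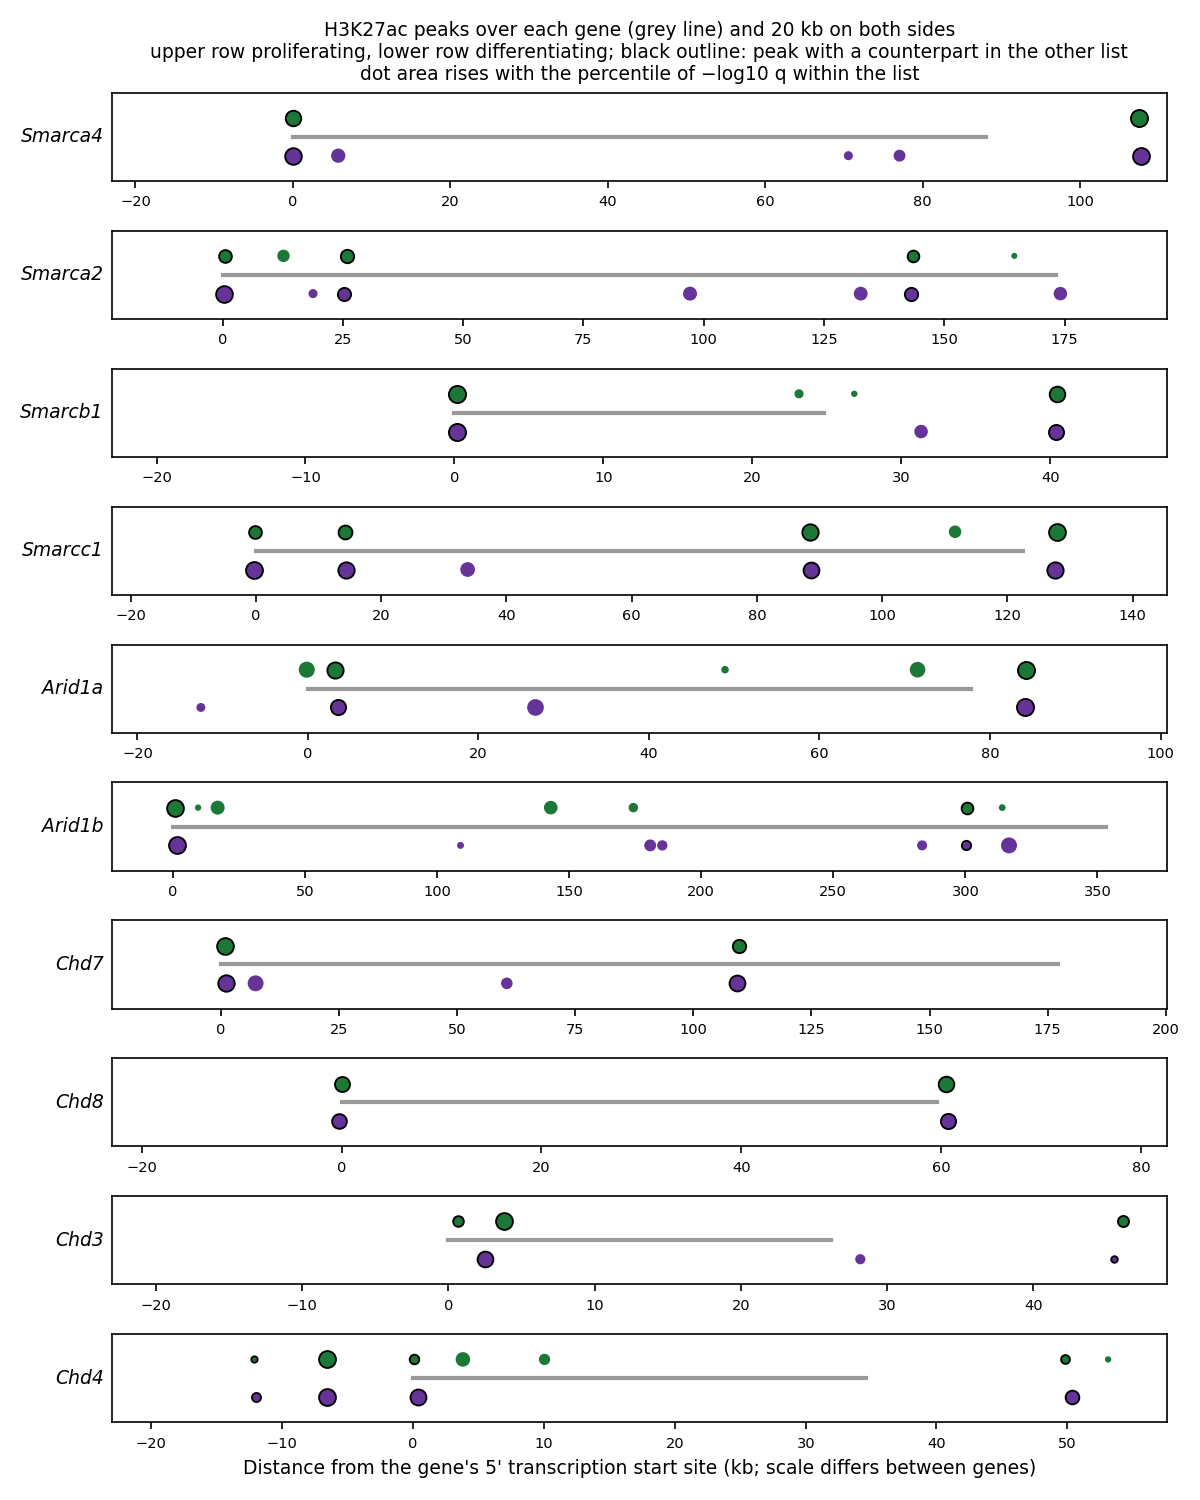
All peaks over each gene (grey line) and 20 kb on both sides, by distance from the 5′ TSS in kb, with the proliferating list above the line and the differentiating list below. Black outlines mark peaks that overlap a peak of the other list, and the dot area rises with the percentile of −log10 q. Outlined dots gather at starts and in the flanks, and most dots within gene bodies have no outline.

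RefSeq start windows of 300 bases (250 before to 50 after the start) were found for 8 of the 10 genes, giving 10 windows, of which 9 lay under a peak in both lists and the outer Arid1a window under a proliferating peak alone. All 10 windows held a GC box, compared with 46.2% of all 21263 windows and 71.9% of the 2649 windows whose start lay under a peak in both lists. None held a SoxE core (ACAAAG or ACAATG), compared with 25.7% of all windows and 17.3% of the windows acetylated in both lists, and none held the CRE TGACGTCA (2.23% of all windows). The CCAAT box (CCAAT) was in 3 windows (38.2% of all windows), the E-box (CANNTG) in 5 (69.0%), the ETS site CCGGAAG in 3 (11.6%) and the NRF1 core in 3 (9.74%), all searched on both strands. Among windows acetylated in both lists, these shares were 36.0%, 56.5%, 19.9% and 16.0%, respectively. The E-box and the CRE read the same on both strands, and some windows overlap, as both Chd4 windows do. The G+C content of the windows was 57.0 to 79.7%, beside a median of 56.3% for all windows and 65.0% for those acetylated in both lists. Their CpG ratio was 0.721 to 1.05, beside 0.567 and 0.855, and 0.380 for windows acetylated in neither list. The windows thus had the composition of CpG-rich promoters.

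Away from starts, most peaks inside the 10 genes had no counterpart in the other list. Of 18 proliferating peaks inside gene bodies and over no start, 5 had a counterpart (27.8%, 9.69 to 53.5), beside 19.5% of all peaks over no protein-coding TSS. Of 19 such differentiating peaks, 4 had a counterpart (21.1%, 6.05 to 45.6), beside 20.2%. Both intervals include these shares, but they treat peaks of the same gene as independent and are no test. The 18 peaks came from 8 genes and the 19 from 6. Counterparts in the 2 lists are the same overlaps seen from either side. In the flanks a counterpart was present for 9 of 11 proliferating (81.8%, 48.2 to 97.7) and 9 of 13 differentiating peaks (69.2%, 38.6 to 90.9), beside 29.2% and 30.1% of all peaks of the lists. The flanks include promoter regions of neighbouring genes, with 4 and 6 peaks. Over all positions, a counterpart was present for 26 of 42 proliferating peaks (61.9%, 45.6 to 76.4) and for 25 of 44 differentiating peaks (56.8%, 41.0 to 71.7), beside the same 29.2% and 30.1%. Positions were not matched in these comparisons. A start of the 10 genes lay under 13 of the 42 and 12 of the 44 peaks. In the whole lists, 4610 of 28924 and 5590 of 27965 peaks lay over a protein-coding TSS, where counterparts were more frequent. Joined across the lists, the peaks formed 60 regions, 25 in both lists, 16 in the proliferating list alone and 19 in the differentiating list alone. The share of joined regions found in both lists was not computed for the whole lists. The region counts per gene therefore have no such share beside them. Peaks without a counterpart ranked lower than those with one, with a median percentile of 28.5 in the proliferating and 41.1 in the differentiating list, beside 76.2 and 83.3. Their highest percentiles were 86.1 and 93.9. The medians of all peaks without a counterpart in the whole lists were not computed. Among the peaks without a counterpart, 4 of 16 proliferating and 3 of 19 differentiating peaks had the shortest length of their list, 263 and 279 bp. In the whole lists, 6626 of 28924 and 4898 of 27965 peaks had that length.

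Among 49 other genes of these and related complexes, start acetylation was mixed. A promoter peak was present for 25 of them in proliferating cells, for 29 in differentiating cells, for 35 in either state and for 19 in both (38.8%, 25.2 to 53.8). By a peak over the TSS of some annotated transcript, these counts were 27, 31, 39 and 19. Promoter peaks in both lists were found for 7 of 22 further SWI/SNF genes, namely the scaffold gene Smarcc2, Smarcd1, Ss18, Ss18l1, Bcl7b, and Arid2 and Pbrm1 of the PBAF form of the complex. In the proliferating list alone there were Smarcd2, Brd9 and Phf10, and in the differentiating list alone Smarce1, Dpf2, Dpf3, Bcl7c and Bicra. The 7 SWI/SNF genes with no promoter peak were Smarcd3, Actl6a, Actl6b, Brd7, Dpf1, Bcl7a and Bicral. A peak over some annotated start was still present for Actl6a and Bcl7a in the differentiating list, and for Bicral and Bcl7c in the proliferating list. Conversely, Phf10 in the proliferating and Ss18l1 in the differentiating list had a promoter peak but none over a start. The promoter peaks of Ss18 (percentiles 98.5 and 99.0) and Bcl7b (99.0 and 96.5) ranked highest among the 7 shared ones in the differentiating and the proliferating list, respectively, and below that of Smarcb1 in both.

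Of the 6 further Chd genes, Chd1 and Chd9 had a promoter peak in both lists, Chd2 and Chd1l in the proliferating list alone, and Chd5 and Chd6 in neither. Of 11 partners of Chd3 and Chd4 in NuRD, 6 had a promoter peak in both lists. These were the histone deacetylase genes Hdac1 and Hdac2, the histone-binding Rbbp4, and Mta1, Mta2 and Gatad2b. Rbbp7 had its promoter peak only in proliferating cells, and Mbd2 and Mbd3 only in differentiating cells. Among the INO80 and SWR1 genes, Ino80, Srcap and Ep400 (3 of 5) had promoter peaks in both lists and Ruvbl1 in the differentiating list alone. Among the ISWI genes, Baz1b (1 of 5) had promoter peaks in both lists, and the motor gene Smarca5 and Bptf in the differentiating list alone. The intervals of these shares overlap widely, since each family has few genes.

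**Figure D4:**
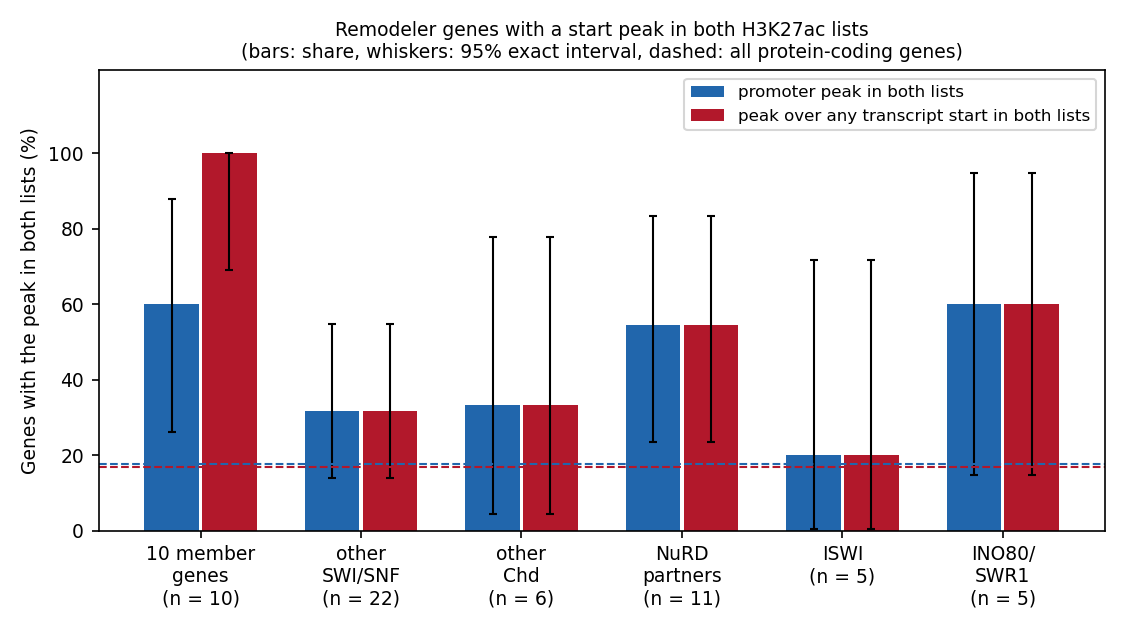
Share of genes in each remodeler family (y axis, in %) with a promoter peak in both lists (blue) and with a peak over any transcript start in both lists (red). Whiskers are exact 95% binomial intervals and dashed lines the shares among all protein-coding genes. The 10 genes examined stand at 60.0% and 100%, and the 22 other SWI/SNF genes at 31.8% by both measures.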

How the data were processed

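The submitters' processing notes and the study's methods state that the authors aligned the ChIP-seq reads to GRCm38/mm10 with Bowtie2 2.1.0, kept uniquely mapped reads, removed PCR duplicates with SAMtools, called broad peaks with MACS2 2.0.10 and removed blacklisted regions with bedtools. The deposited lists, 1 per library, have no header. Their last column holds 3 values, taken in MACS2's own order to be a ratio (fold enrichment), then the −log10 of p and that of q, and the deposited files give no counts. Genes and transcript starts came from GENCODE M21 on the same build, and start windows and their bases from RefSeq on GRCm38.p6, with no window for Chd7 and Chd3.

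Peaks were compared in Python 3.11.15 with numpy 2.4.6, at least 1 shared base counting as an overlap, and bedtools 2.31.1 was used to check the counts. Promoter and overlap calls were tested on simulated data. Intervals are exact Clopper-Pearson 95% intervals (scipy 1.17.1), cover counting error only and treat genes and peaks as independent. Plots were drawn with matplotlib 3.10.9.

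The 10 genes, the 49 other remodelers, the 18 markers and the motifs were chosen with earlier results of these data known. All 10 genes are named with their peaks, neighbours where a peak lay in their promoter region alone (1 of which is not reported here), and other remodelers by the lists in which they had a promoter peak. Dhx30, Cspg5 and Iffo1 were named after their positions were seen. The alternatives were other promoter regions, the starts of every transcript, a −log10 q of at least 5, a reciprocal overlap of 0.5 and other flanks. Principal transcripts were added after the data had been seen.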

Additional observations from a re-analysis of the deposited data

How the results depend on the processing

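Of 66 recomputed counts, 48 stayed within 1.5 times the reported value and 18 did not. With the starts of every transcript in place of the 5′ TSS, the genes with a promoter peak rose from 6 to 10 in the differentiating list and from 6 to 10 in both lists. The 49 other remodelers rose as well, from 29 to 37 and from 19 to 28. A symmetric promoter region, 1000 bp to either side, gave 10, 9 and 9 genes in the proliferating, the differentiating and both lists. It gave 30, 34 and 25 of the 49 other remodelers. The share of all protein-coding genes was not computed for either setting. With a −log10 q of at least 5, the promoter peaks of the 10 genes fell to 1 in the proliferating list, 2 in the differentiating list, 2 in either and 1 in both, the shared promoter being that of Smarcb1 and the other that of Smarcc1. At this threshold the 49 other remodelers kept 8, 13, 14 and 7. The regions of the 10 genes kept 5 proliferating and 6 differentiating peaks, of which 4 and 4 had a counterpart. No share over all protein-coding genes or all peaks was computed at this threshold. Without flanks, 17 proliferating and 16 differentiating peaks had a counterpart, and with flanks of 50 kb the differentiating list gave 68 peaks, of which 38 had a counterpart. These counts moved with the number of starts, peaks or bases that each setting takes in.

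No paired analysis was possible because each state has 1 library. For the same reason no library was left out in turn. The depth behind a peak is unknown, so a peak missing from a list is not a measure of absent acetylation.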

Other observations

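The density of peaks over the 10 genes and their flanks differed among the genes. Chd4 had the highest in both lists, 9.38 peaks per 100 kb in the proliferating and 5.36 in the differentiating list, where its chromosome had 1.21 and 1.15. Smarcb1 followed in the proliferating list with 6.17 and Chd3 and Smarcb1 in the differentiating list with 4.54 and 4.63. The chromosome of Smarcb1 had 2.30 and 2.29 in the proliferating and differentiating lists, and that of Chd3 had 1.56 in the differentiating list. Chd8 had 2.01 in both lists, where its chromosome had 0.411 and 0.390. Chd7 and Arid1b, both long genes, had 0.921 and 1.78 in the proliferating list and 1.84 and 1.78 in the differentiating list, where their chromosomes had 0.896 and 1.22, and 0.821 and 1.16. Peaks covered 9.24% of the Chd4 gene body in the proliferating and 2.92% in the differentiating list, whereas for Smarca4 the shares were 0.849% and 2.93%. With 1 library per state these values have no replicate error.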
